A study of Callithrix jacchus with 4 samples.

Results

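TFEC, MITF, TFEB and TFE3 make up a family of 4 related transcription factors, and their transcripts were followed across the cell types of the marmoset primary visual cortex after an ischemic lesion. They are 4 of the 32323 genes listed in the UMI table of the injured cohort and 4 of the 16383 genes listed in both cohorts' tables. The genes were chosen with their levels in injured and control nuclei known, so that contrast is described for them with no test, and the tests below concern other genes, or nuclei compared within the injured animals.

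Single nuclei were sequenced on a droplet platform from 3 adult marmosets that had received endothelin-1, a vasoconstrictor peptide, in 1 hemisphere 7 days earlier (1 library per animal), and from non-lesioned V1 of 3 other adult marmosets that were pooled in 1 library. Injured replicates 1, 2 and 3 held 7500, 12527 and 9510 nuclei with medians of 4504.5, 3531 and 4229.5 UMIs, and the control library held 8610 nuclei with a median of 2117 UMIs. The authors' annotation placed each nucleus in 1 of 7 cell types, and of the 32 marker genes that the study used and both tables list, 31 were highest in their own cell type in each of the 4 libraries. The authors named the clusters by these same markers, so this is no independent check of the annotation. The cohorts also differed in the nuclei isolation protocol, in the sorting described for control nuclei alone, in the facility and the sequencing instrument, and in how nuclei were filtered, and these cannot be told apart from the injury. Any 2 libraries shared between 15 and 27 cell barcodes, at most 0.302% of the smaller library.

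These factors are basic helix-loop-helix leucine zipper proteins that bind DNA as homodimers or heterodimers with each other. TFEB, TFE3 and MITF are held in the cytoplasm by mTORC1 when nutrients are plentiful and move to the nucleus in starvation or lysosomal stress, where they raise genes of lysosomes and autophagy, so that their activity is set in large part after translation. MITF is best known as the master regulator of melanocytes, and it also acts in osteoclasts, mast cells and macrophages. TFEC is the least studied member and has been described mainly in myeloid cells.

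TFEC was higher in every cell type of the injured cortex, by a fold of 7.92 in oligodendrocytes to 13.6 in endothelial cells. In microglia, TFEC gave 1724, 2030 and 1543 CPM (UMIs of the gene per 1e6 UMIs of all genes) in injured replicates 1, 2 and 3, and 153 CPM in the control library. In astrocytes it gave 1807, 1716 and 1475 CPM against 126 CPM. In excitatory neurons it gave 1849, 1862 and 1549 CPM against 157 CPM. In these 3 cell types the lowest injured library stood far above the control library, whose counts of 19, 109 and 2683 TFEC UMIs set the precision of its value.

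In inhibitory neurons TFEC was at 1823, 1774 and 1398 CPM in the injured libraries and at 165 CPM in the control library. In oligodendrocyte precursor cells (OPCs) it was at 1985, 1871 and 1598 CPM against 150 CPM. In oligodendrocytes it was at 1128, 1184 and 907 CPM against 135 CPM, and in endothelial cells at 925, 941 and 726 CPM against 63.7 CPM. Groups overlapped in none of the 7 cell types, and injured replicate 3 was the lowest library in each of them.

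As means of 3 animals, the log2 ratio of injured to control was lowest in oligodendrocytes, 2.98 ± 0.20 (SD, n = 3), and highest in endothelial cells, 3.75 ± 0.21. The 95% counting interval of the control library alone put the fold between 6.82 and 9.25 in oligodendrocytes and between 7.93 and 25.5 in endothelial cells, where the control value rests on 13 UMIs. All 3 injured libraries stood above the control library in all 7 cell types for 1011 of 11847 genes with a mean of at least 5 CPM (8.53%), and below it for 913 (7.71%). Since the genes were chosen on this contrast, nothing is read from TFEC being among the 8.53%. As a description of size, the lowest ratio of any injured library to the control library over the 7 cell types was 6.70 for TFEC, and 3 other genes had a higher lowest ratio: B2M, a subunit of MHC class I, at 75.4, MX1, an interferon-induced GTPase, at 13.3, and CD74, the MHC class II invariant chain, at 7.16. B2M and CD74 had 1 UMI each in control microglia, and whether both cohorts' reads were counted on the same gene models was not tested.

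**Figure D1:**
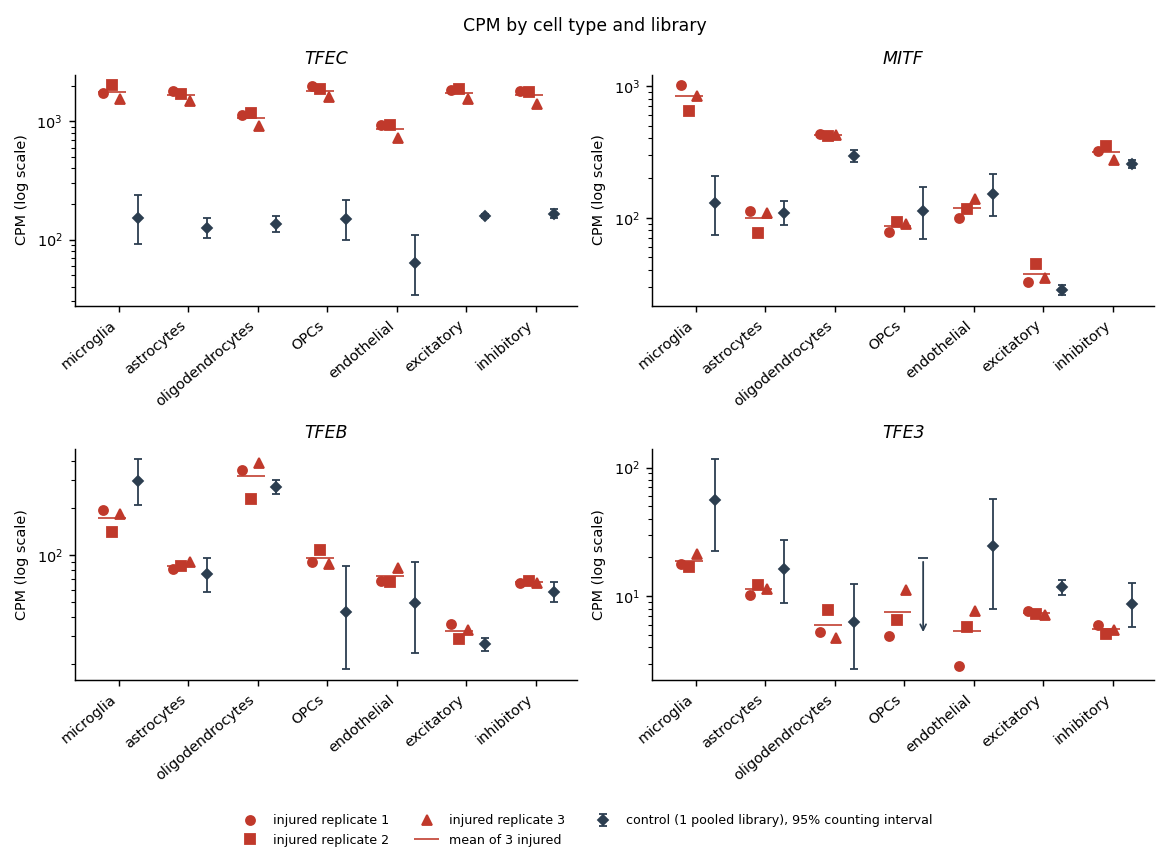
CPM (log axis) of the 4 family members in each of 7 cell types. Red symbols are the 3 injured libraries with their mean as a line, and dark diamonds are the control library with its 95% Poisson interval, which covers counting error only. The arrow in the TFE3 panel marks OPCs, where the control library had 0 UMIs. TFEC stands above control everywhere, MITF by a wide margin only in microglia.

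The rise was also seen in the share of nuclei with a TFEC UMI. Across the cell types this share was between 65.4% and 98.6% in the injured libraries and between 6.63% and 37.4% in the control library, whose nuclei were shallower. With every nucleus thinned to 1000 UMIs, the share in microglia was 78.9% ± 3.06 (SD, n = 3) in injured libraries and 10.8% in the control library (exact 95% interval 3.03 to 25.4%, 37 nuclei). In astrocytes it was 79.7% ± 4.95 against 12.2% (8.97 to 16.0%, 362 nuclei). In excitatory neurons it was 77.0% ± 3.62 against 15.0% (14.1 to 16.0%, 5152 nuclei). At this fixed depth the smallest share over injured cell types was in endothelial cells, 52.4% ± 5.80 against 9.41% (4.15 to 17.7%), and no injured mean lay inside the interval of its control.

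**Figure D2:**
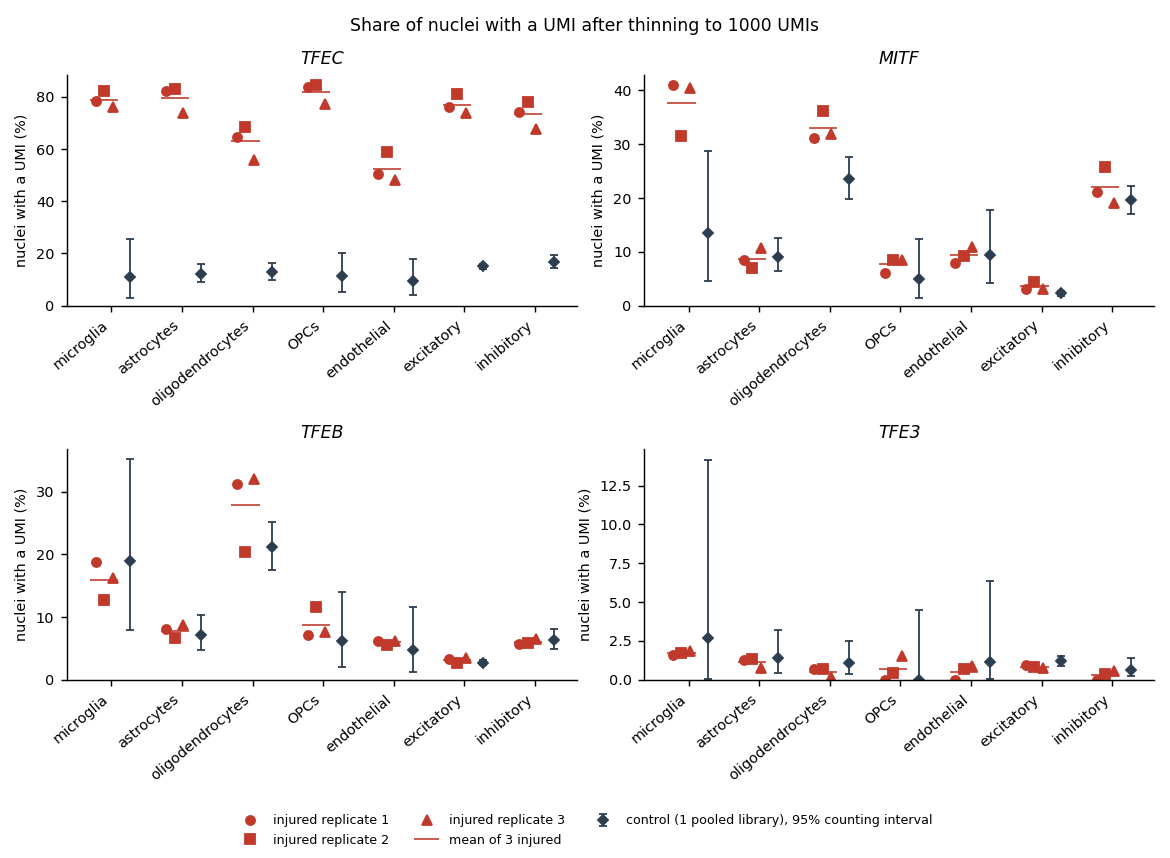
Share of nuclei with at least 1 UMI (%) after every nucleus was thinned to 1000 UMIs and shallower nuclei were left out. Red symbols are injured libraries and their mean, dark diamonds the control library with its exact 95% binomial interval. TFEC separates from control in every cell type, and the TFE3 shares are at or below 2.70% throughout.

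Microglia did not stand apart by their level of TFEC in either cohort. In the control library its level was highest in inhibitory neurons (165 CPM), 2.59 times its level in endothelial cells, with microglia (153 CPM) in between. The counting interval of control microglia (91.9 to 238 CPM) held the value of inhibitory neurons, so their order was not resolved. In the injured animals the order by mean level was OPCs (1818 ± 199 CPM), microglia (1766 ± 246), excitatory neurons (1754 ± 177), astrocytes (1666 ± 172), inhibitory neurons (1665 ± 233), oligodendrocytes (1073 ± 146) and endothelial cells (864 ± 120). The first 5 means differed by less than the SD between animals. Oligodendrocytes were below those 5 cell types in each animal, and endothelial cells were below oligodendrocytes in each animal. Within each animal OPCs were above astrocytes, excitatory neurons and inhibitory neurons, narrowly so for excitatory neurons in replicate 2 (1871 and 1862 CPM). The highest cell type was OPCs in injured replicates 1 and 3 and microglia in replicate 2. The highest was 2.15, 2.16 and 2.20 times the lowest in injured replicates 1, 2 and 3. Of the 167, 179 and 165 genes with a mean of at least 500 CPM over cell types in those libraries, 18, 17 and 20 had a smaller ratio, and the median ratio was between 10.9 and 11.7.

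The level of TFEC was set beside that of microglial transcripts found in the other cell types. DOCK8, a guanine nucleotide exchange factor of immune cells, had a UMI in 80.5% to 87.5% of injured microglia and in 7.94% to 19.7% of the other injured nuclei. In injured replicate 1 there were 1.39 TFEC UMIs per DOCK8 UMI in microglia, 52.3 in astrocytes and 49.7 in excitatory neurons. Against PTPRC, the leukocyte phosphatase CD45, the ratios of the same library were 2.26, 107 and 76.6. TFEC thus varied far less between cell types than either gene. CD74 had a UMI in 31.7% to 66.5% of injured nuclei outside microglia and in at most 1.02% of control nuclei of any type. The part of free RNA in the TFEC level was not tested.

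When only nuclei without a UMI of any of 11 microglia markers were kept outside microglia, astrocytes (60, 385 and 251 nuclei) still gave 1759, 1693 and 1443 CPM of TFEC. The level also varied with depth within a library, in no single direction. In astrocytes of injured replicate 3, nuclei of 1000 to 2000 UMIs gave 1406 CPM and nuclei of 8000 to 20000 UMIs 1475 CPM. In excitatory neurons of injured replicate 1, the 21 nuclei of 1000 to 2000 UMIs gave 1091 CPM and those of 4000 to 8000 UMIs 2028 CPM. In endothelial cells of injured replicate 2, the level was 1311 CPM at 1000 to 2000 UMIs and 534 CPM in the 33 nuclei of 8000 to 20000 UMIs, the lowest injured value of any depth class, beside a highest control value of 210 CPM. The genes on either side of TFEC in the marmoset annotation, MDFIC and TES, did not share this pattern in all cell types. MDFIC in microglia gave 155, 126 and 139 CPM in injured libraries and 8.03 CPM in the control library, while in astrocytes it gave 18.7, 16.4 and 24.0 CPM against 19.7 CPM. In OPCs MDFIC gave 43.1, 29.4 and 55.8 CPM against 5.35 CPM (1 UMI), and it was above control in all injured libraries in endothelial cells and inhibitory neurons too. TES stayed at or below 1.04 CPM in all injured astrocyte sums, while in endothelial cells it gave 31.7, 18.4 and 34.6 CPM against 4.90 CPM (1 UMI) and in microglia 10.4, 8.49 and 10.8 CPM against 0 control UMIs.

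**Figure D3:**
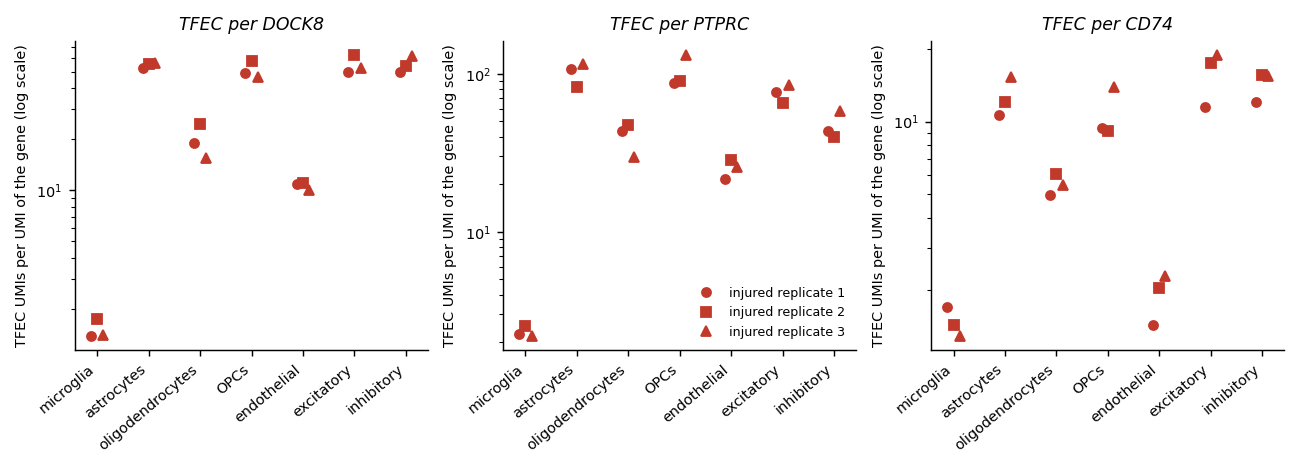
TFEC UMIs per UMI of DOCK8, PTPRC or CD74 (log axis) in each cell type of the 3 injured libraries. The ratio to DOCK8 was 1.39 in microglia and 52.3 in astrocytes of injured replicate 1, and endothelial cells sit close to microglia only for CD74.

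MITF differed from TFEC in where it was high. In microglia it gave 1014, 650 and 840 CPM in the injured libraries and 129 CPM in the control library (16 UMIs), a mean log2 ratio of 2.67 ± 0.32 (SD, n = 3), with a fold between 3.997 and 11.4 from the control count alone. All injured microglia sums lay above the control sum, but MITF differed with depth among injured microglia, and control microglia were shallow. Among nuclei of 1000 to 2000 UMIs it gave 416, 265 and 417 CPM against 132 CPM (30 control nuclei), and among nuclei of 4000 to 8000 UMIs, a depth at which fewer than 20 control microglia were present, 1103, 925 and 972 CPM. The mean log2 ratio was 2.11 after thinning to 1000 UMIs. Marker levels of other blood cells also differed in the microglia sums. In injured libraries 8 monocyte and macrophage markers summed to 1810 to 3279 CPM, against 1077 CPM. The 5 lymphocyte markers summed to 179 to 207 CPM against 80.3 CPM, with 2 of them at 0 in the control library. The 11 microglia markers summed to 6163 to 7270 CPM against 7103 CPM. Of these, CD74 alone gave 1007, 1416 and 1190 CPM against 8.03 CPM (1 UMI), so the remaining microglia markers together were lower in injured libraries. The part of other blood cells in the MITF and TFEC levels was not tested.

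Oligodendrocytes came next for MITF, at 429, 420 and 425 CPM against 294 CPM, a log2 ratio of 0.53 ± 0.015. In inhibitory neurons MITF gave 323, 349 and 273 CPM against 255 CPM. In excitatory neurons, where it was lowest, it gave 32.7, 44.3 and 35.0 CPM against 28.4 CPM.

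In the remaining 3 cell types MITF was not above control. In astrocytes the injured libraries gave 112, 76.2 and 108 CPM and the control library 109 CPM, so the groups overlapped. In endothelial cells they gave 99.1, 117 and 138 CPM against 152 CPM, and in OPCs 78.2, 92.0 and 90.2 CPM against 112 CPM. These 2 lower positions lay inside the counting interval of the control library (103 to 216 CPM in endothelial cells, 69.5 to 172 CPM in OPCs). After thinning to 1000 UMIs the mean log2 ratio changed sign in both, to 0.02 and 0.43. The order of MITF by mean level in the injured animals was microglia (834 ± 182 CPM), oligodendrocytes (425 ± 4.395), inhibitory neurons (315 ± 38.6), endothelial cells (118 ± 19.5), astrocytes (98.8 ± 19.7), OPCs (86.8 ± 7.503) and excitatory neurons (37.4 ± 6.14). Endothelial cells were above OPCs in each animal, while astrocytes did not differ from either beyond their spread.

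TFEB, the member most closely tied to lysosome biogenesis, was highest in oligodendrocytes and microglia and did not follow TFEC. In microglia it was lower in the injured libraries, 195, 140 and 182 CPM against 297 CPM (37 UMIs, interval 209 to 410 CPM), a log2 ratio of -0.80 ± 0.25. In OPCs it was higher, 89.9, 108 and 87.8 CPM against 42.8 CPM, where the control value rests on 8 UMIs and the fold lies between 1.13 and 5.15 from that count. The mean log2 ratio of 1.15 in OPCs fell to 0.32 after thinning to 1000 UMIs. The share of OPC nuclei was then 8.80% ± 2.39 (SD, n = 3) against 6.25%, inside the control interval (2.06 to 14.0%, 80 nuclei). In oligodendrocytes the injured libraries gave 350, 229 and 386 CPM around a control value of 272 CPM, and the groups overlapped.

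In the other 4 cell types every injured library was above control, but by little. In astrocytes TFEB gave 80.8, 84.7 and 90.3 CPM against 75.1 CPM, and in endothelial cells 68.2, 67.2 and 82.7 CPM against 49.0 CPM. In excitatory neurons it gave 36.1, 28.9 and 32.8 CPM against 26.7 CPM, and in inhibitory neurons 66.4, 68.3 and 65.6 CPM against 58.0 CPM. In none of these 4 did all injured libraries pass the counting interval of the control library. In inhibitory neurons the mean log2 ratio of 0.20 turned to -0.14 after thinning and to -0.08 in nuclei with at most 2500 genes.

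TFE3, which shares many lysosomal targets with TFEB, was close to the detection limit, with 1494 UMIs in all 38147 nuclei against 210935 for TFEC. It was lower in all injured libraries in 5 cell types. In microglia it gave 17.9, 17.0 and 21.1 CPM against 56.2 CPM, a control value of 7 UMIs. In excitatory neurons, where the count is largest, it gave 7.63, 7.33 and 7.09 CPM against 11.7 CPM (200 UMIs, interval 10.1 to 13.4 CPM), a log2 ratio of -0.67 ± 0.05. In inhibitory neurons it gave 6.004, 5.13 and 5.45 CPM against 8.75 CPM, in astrocytes 10.3, 12.3 and 11.5 CPM against 16.2 CPM, and in endothelial cells 2.88, 5.72 and 7.64 CPM against 24.5 CPM (5 UMIs). In oligodendrocytes the groups overlapped, at 5.27, 7.77 and 4.76 CPM against 6.26 CPM. In OPCs the control library had 0 UMIs in 171 nuclei, and the injured levels of 4.93, 6.53 and 11.2 CPM were all below the 16.1 CPM that 3 UMIs would give there, so no difference was detectable.

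The 4 genes did not move together. TFEC was above control in 7 cell types, MITF in 4 with 2 below, TFEB in 5 with 1 below, and TFE3 below it in 5, leaving out OPCs with their control count of 0. After thinning to 1000 UMIs TFEB was above control in 3 cell types. Counting only positions past the control library's own 95% counting interval, these were 7 for TFEC, 3 above for MITF, 1 above and 1 below for TFEB, and 3 below for TFE3. That interval covers counting error only, and the share of all genes past it was not computed, so nothing is read from these counts. Of all genes tested, the share with every injured library above control was 49.4% in microglia, 36% in astrocytes, 32.9% in oligodendrocytes, 41.4% in OPCs, 47.8% in endothelial cells, 31.3% in excitatory and 30.8% in inhibitory neurons. The share with every injured library below control was 40.8%, 43.2%, 43.5%, 40%, 40.9%, 47.5% and 44.9% in the same order, so a position on 1 side says little by itself. In microglia alone, TFEC and MITF were higher and TFEB and TFE3 lower.

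**Figure D4:**
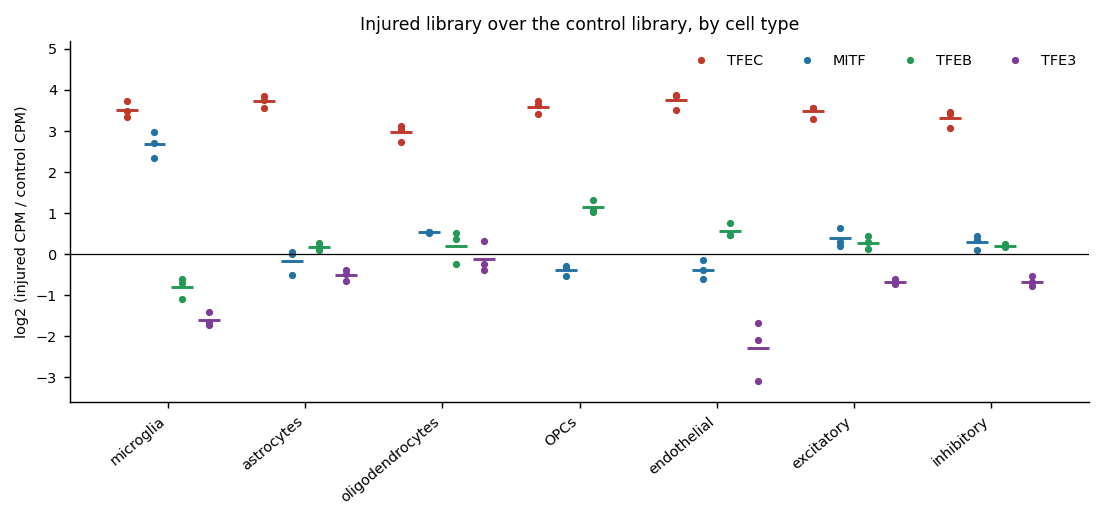
Log2 ratio of each injured library (points) to the control library for the 4 genes, with the mean of 3 as a bar, by cell type. TFE3 in OPCs is left out because the control library had 0 UMIs. TFEC lies between 2.98 and 3.75 by mean in every cell type, and MITF reaches 2.67 in microglia only.

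Over the 28 sums of a library and cell type, Pearson's r of log2(CPM + 1) between TFEC and the other members was 0.10 for MITF, 0.05 for TFEB and -0.12 for TFE3, and it was 0.70 between MITF and TFEB. Within the 21 injured sums the MITF and TFEB value was 0.76. The sums share libraries, cohorts and depth, so these values are descriptions. The 10 genes of 11847 with the highest r with TFEC included FHAD1 (0.94), P2RY11 (0.93), PIDD1 (0.89), PPP2R5B (0.88), RAB24 (0.87) and 4 genes with no symbol (0.88 to 0.90). P2RY11 is a purinergic receptor, and RAB24 is a small GTPase linked to autophagy. FHAD1 gave a median of 177 CPM over injured sums and 40.7 CPM over control sums. Over the injured sums alone none of these 10 were among the first 10, where r was 0.77 for FHAD1, 0.43 for P2RY11, 0.10 for PIDD1, -0.03 for PPP2R5B and 0.48 for RAB24. The genes most like MITF were ZEB2 (0.88), a zinc finger factor of glia and myeloid cells, and LCORL (0.85). The genes most like TFEB were FAM126A (0.92), whose loss causes hypomyelination, and NPC1 (0.91), the lysosomal cholesterol transporter.

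The genes through which the family is known to act were taken from 6 lists: regulators of its nuclear entry, lysosomal hydrolases, lysosomal membrane proteins, V-ATPase subunits, autophagy genes and MITF targets of the melanocyte and osteoclast lineages. Of 143 listed genes, 123 were in both tables. Injured and control sums were compared with edgeR's quasi-likelihood test, and a gene was called at an adjusted p under 0.01 if its natural-log fold change was over 0.25 in size and 10% or more of the nuclei of 1 cohort held a UMI. Over 804 pairs of a gene and a cell type, 18 were called higher and 5 lower. Of all genes tested, the share called by cell type ran from 0% (microglia) to 4.19% (endothelial cells) higher and from 0% to 1.99% lower. The pathway counts were not tested against these shares. The counts of 18 and 5 pairs were not stable when 1 animal was left out. They were 6 and 2 without injured replicate 1, 63 and 18 without replicate 2, and 28 and 12 without replicate 3.

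In endothelial cells 7 pathway genes rose and 1 fell (4.19% of all genes rose and 1.99% fell). The rises were 2 of 22 regulators, 1 of 32 hydrolases, 1 of 14 membrane proteins, 2 of 14 V-ATPase subunits and 1 of 18 autophagy genes tested. PPP3CA, a catalytic subunit of calcineurin, which dephosphorylates TFEB, rose (850, 859 and 842 CPM against 260 CPM), and PPP3CB, the other widely expressed catalytic subunit, fell (103, 110 and 107 CPM against 260 CPM). RHEB, the GTPase that activates mTORC1, rose from 68.6 CPM (14 UMIs) to 244, 206 and 227 CPM. CD63, a tetraspanin of late endosomes, ATP6V1B2 and ATP6V1F of the proton pump, NPC2 and GABARAP also rose, on control counts of 1 to 4 UMIs.

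In inhibitory neurons 5 pathway genes rose and 2 fell (2.2% and 1.22% of all genes), and in excitatory neurons 3 rose and 2 fell (2.6% and 1.25%). Rises in inhibitory neurons were 2 of 30 hydrolases, 1 of 14 membrane proteins, 1 of 15 V-ATPase subunits and 1 of 18 autophagy genes tested. Those in excitatory neurons were 1 of 32 hydrolases, 1 of 15 V-ATPase subunits and 1 of 18 autophagy genes. TPP1, a lysosomal peptidase, rose in excitatory neurons from 10.01 to 24.4, 19.2 and 23.8 CPM (log2 fold change 1.28, SE 0.20, adjusted p = 0.0082 by edgeR) and in inhibitory neurons from 9.73 to 28.02, 23.6 and 27.97 CPM. MAP1LC3A, an LC3 protein of autophagosomes, rose in excitatory neurons from 32.2 to 84.2, 74.3 and 74.2 CPM and in inhibitory neurons from 27.6 to 74.0, 55.7 and 76.2 CPM. ATP6V1B2 rose and ATP6V1E1 fell in both neuron classes, 2 subunits of the same complex in opposite directions. FLCN, whose product folliculin is needed for mTORC1 to hold TFEB and TFE3 in the cytoplasm, was called lower in both. But it had 0 UMIs in every injured nucleus of every cell type against 730 UMIs in control excitatory neurons. The control level there was at least 181-fold the level that 3 UMIs would give in an injured library. Among genes listed for both cohorts, 456 were at 0 in all injured nuclei, 167 of them with at least 100 control UMIs. Whether FLCN was counted on the same gene model in both cohorts was not tested. No fall in its expression is therefore read from these calls, which are among the 5 lower pairs.

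In astrocytes LIPA, the lysosomal acid lipase, rose from 94.8 to 529, 705 and 384 CPM (1.12% of genes rose and 0.378% fell), and CD63 rose on 5 control UMIs. CD63 was also the 1 pathway gene that rose in oligodendrocytes (0.619% of genes rose and 0.155% fell). No pathway gene was called in OPCs (0.061% of genes rose and 0.00871% fell) or microglia. In microglia, with 129 control nuclei and 124463 control UMIs, edgeR called 0 of 13470 genes in either direction (0%), 2857 had an unadjusted p below 0.05, and DESeq2 called 145 higher and 173 lower. The median log2 fold change of 32 hydrolases in microglia was 1.86 beside 0.42 over all genes, and that of 14 V-ATPase subunits 1.11. It was 0.67 for regulators, 0.66 for membrane proteins, 0.47 for autophagy genes and -0.01 for MITF targets. In control microglia 9 of 34 hydrolases and 2 of 15 V-ATPase genes had 0 UMIs. In injured microglia 1 hydrolase and 1 V-ATPase gene had 0 UMIs, and the same numbers held in every other injured cell type. Whether these genes were counted on the same gene models in both cohorts was not tested. Summed levels were 4379 to 4871 CPM in injured libraries against 2201 CPM for hydrolases, and 1554 to 1651 CPM against 1430 CPM for V-ATPase genes. With no gene called at all in microglia, the lack of a call there says nothing about single genes. MLANA, a melanosomal protein and MITF target, gave 383, 260 and 356 CPM in injured microglia against 48.2 CPM (6 UMIs, log2 fold change 3.03, SE 0.43, adjusted p = 0.0399 by edgeR). No MITF lineage target was called in the other cell types.

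Within the injured animals, nuclei with and without a UMI of a member were compared in pairs of similar depth, with the animal as a block. Some lysosomal genes were higher in microglia with a MITF UMI than in microglia without one. This comparison was added after the data were seen and used 582, 812 and 469 pairs of nuclei in injured replicates 1, 2 and 3, with class medians between 2436 and 2826 UMIs. The classes were not equally deep in replicate 2, where the medians were 2719.5 UMIs with and 2448 UMIs without a MITF UMI. Of 11110 genes, 354 were higher (3.19%) and 225 lower (2.03%) in MITF-positive microglia. Among 31 hydrolases 10 were higher and none lower, among 14 lysosomal membrane proteins 3 were higher, among 13 V-ATPase subunits 3, among 18 autophagy genes 2, and among 22 regulators 2. With DESeq2 the numbers were 6 hydrolases, 0 membrane proteins, 2 V-ATPase subunits, 1 autophagy gene and 1 regulator. The median log2 fold change was 0.35 over the hydrolases and -0.01 over all genes. Without injured replicate 1 the calls fell from 579 to 359, with DESeq2 to 225, and without the animal as a block to 0, with 1149 genes at an unadjusted p below 0.05.

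CTSB, the lysosomal protease cathepsin B, was at 354, 359 and 395 CPM in MITF-positive and at 228, 200 and 240 CPM in MITF-negative microglia of injured replicates 1, 2 and 3 (log2 fold change 0.80, SE 0.08, adjusted p = 3.09e-10 by edgeR). CTSK, the collagenolytic cathepsin of osteoclasts and a known MITF target, was at 137, 110 and 108 CPM against 61.9, 76.4 and 76.3 CPM. ATP6V1A, the catalytic subunit of the proton pump, was at 259, 231 and 216 CPM against 134, 139 and 116 CPM. The classes did not overlap for any of these genes, but they were picked from the called ones, so this adds nothing to the calls.

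FNIP2, the partner of folliculin, was at 648, 850 and 529 CPM in MITF-positive microglia against 288, 493 and 324 CPM. RRAGD, a Rag GTPase that recruits mTORC1 to lysosomes, was also higher (log2 fold change 0.62, SE 0.13, adjusted p = 0.00051 by edgeR), but its call was lost without nuclei holding a lymphocyte-marker UMI (0.14, SE 0.16, adjusted p = 0.82) and with DESeq2. Of 12 MITF lineage targets 3 were higher and 2 lower. GPNMB, a glycoprotein of melanosomes and of lipid-laden macrophages, was at 60.5, 74.8 and 77.7 CPM against 37.6, 11.4 and 45.6 CPM, and MLANA at 322, 347 and 324 CPM against 149, 120 and 165 CPM. CSF3R was the third that was higher, and the 2 lower ones were BCL2, which blocks apoptosis, and RAB27A, which moves melanosomes.

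The 5 largest rises were PPARG, a lipid-sensing nuclear receptor, PLXDC1, GPNMB, MLANA and SLC40A1, the iron exporter ferroportin. The 5 largest falls were IKZF3, THEMIS, STAT4, SKAP1 and SCML4, of which the first 4 are known from T cells. IKZF3 was at 42.4, 10.9 and 23.2 CPM in MITF-positive and at 198, 68.3 and 123 CPM in MITF-negative nuclei. All 5 lymphocyte markers tested had a lower fitted level in MITF-positive nuclei, 2 of them (CD2 and CD247) called, and 4 of 8 monocyte and macrophage markers were higher (F13A1, MRC1, CD163 and LYZ). Without nuclei that held a lymphocyte-marker UMI (360, 591 and 331 pairs), 99 genes were called, 71 higher (0.715%) and 28 lower (0.282%), 94 of them among the 579. CTSB, CTSK, CTSS, LGMN, LIPA, ATP6V1A, ATG7, FNIP2, MLANA, GPNMB, PPARG and SLC40A1 were still higher, which left 5 hydrolases, 1 V-ATPase subunit, 1 autophagy gene and 1 regulator called, and no membrane protein. Of the 579 genes, 577 could be tested there, and 566 kept their direction. None of the 5 largest falls were called there, but all were still fitted lower in MITF-positive nuclei. The log2 fold changes (adjusted p by edgeR) were -1.38 (0.0022) for IKZF3, -1.28 (0.0042) for THEMIS, -0.59 (0.38) for STAT4, -1.14 (0.028) for SKAP1 and -2.83 (0.00024) for SCML4. Whether lymphocytes remained in this set of nuclei was not tested.

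**Figure D5:**
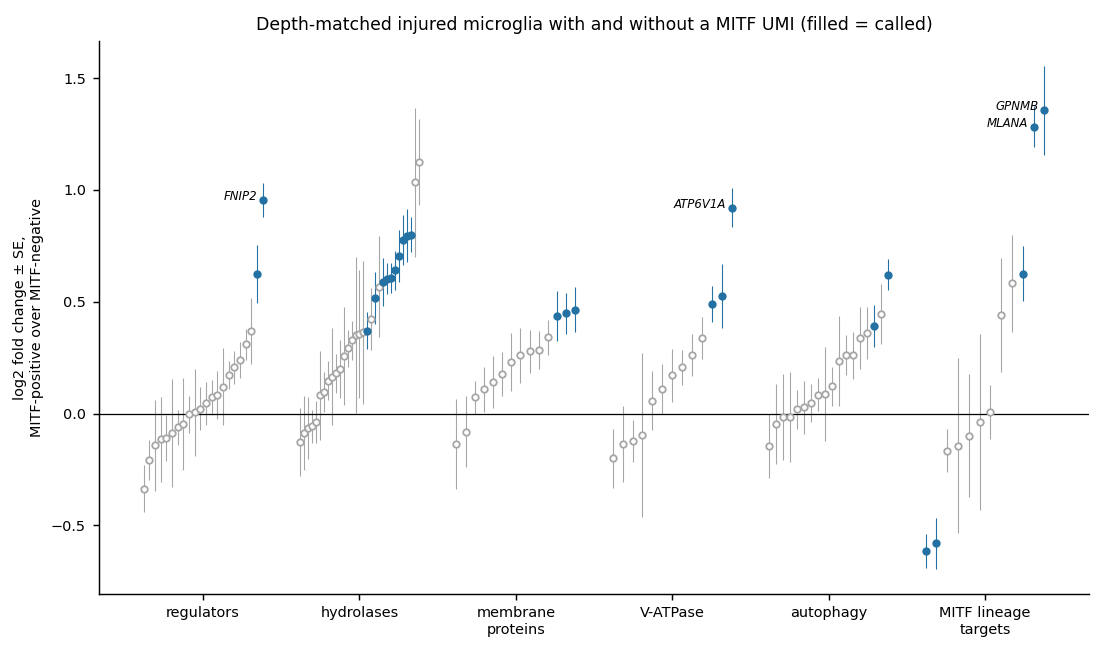
Log2 fold change with SE (edgeR) of MITF-positive over MITF-negative injured microglia, for the genes of the 6 pathway lists. Each point is 1 gene, ordered by its value within its list, and filled blue points were called. All 10 called hydrolases lie above 0, and the open points above 1 had too few nuclei with a UMI or too large an error for a call.

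TFEC itself hardly differed between the MITF classes, at 1769, 2181 and 1615 CPM with and 1646, 1970 and 1439 CPM without a MITF UMI. The log2 fold change was 0.20 (SE 0.06, adjusted p = 0.0094 by edgeR), under the size that a call needs, and it was 0.01 without lymphocyte-marker nuclei. In the converse comparison of TFEC classes, described next, MITF was at 608, 481 and 661 CPM with and 580, 187 and 468 CPM without a TFEC UMI, a log2 fold change of 0.58 (SE 0.16, adjusted p = 0.031 by edgeR) that was not called either and that was 0.46 (SE 0.20, adjusted p = 0.82) without lymphocyte-marker nuclei. Between the MITF classes TFEB (-0.09, SE 0.09) and TFE3 (0.37, SE 0.24) were not called.

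The same comparison for TFEC gave fewer genes. Since 2643, 2482 and 2045 injured microglia held a TFEC UMI, the 180, 210 and 173 TFEC-negative nuclei were each paired with a positive nucleus of like depth, at class medians of 1010 to 1235 UMIs. Of 6218 genes 11 were higher (0.177%) and 11 lower (0.177%), and none of the pathway genes were among them. Without injured replicate 2 or 3 the calls fell from 22 to 6 or 7. IDO1, the enzyme that opens tryptophan catabolism, had the largest rise (log2 fold change 1.31, SE 0.24, adjusted p = 3.19e-05 by edgeR), followed by SLC35A1, RNF150, IL7 and M1AP. The 5 largest falls were 2 genes with no symbol, TXK and CORO1A of lymphocytes, and RORA. DESeq2 called 0 genes (68 with an unadjusted p below 0.05), as did edgeR without lymphocyte-marker nuclei (108, 124 and 125 pairs, 258 genes with an unadjusted p below 0.05). A split of nuclei with at least 2000 UMIs at the median TFEC per UMI called 117 of 12032 genes higher and 63 lower. Among pathway genes it called SQSTM1 (1 of 18 autophagy genes) and BCL2A1 (1 of 13 MITF targets) higher, and none lower. This split was chosen after seeing the data, and in replicate 3 its classes were unequal in depth (medians of 4237.5 and 3876 UMIs). Whether the MITF and TFEC classes differ in their effect on a gene was not tested.

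TFEC-positive nuclei of 3 other cell types were compared in the same way. In excitatory neurons 19 of 4794 genes were higher (0.396%) and 7 lower (0.146%), and in oligodendrocytes 2 of 5321 were higher (0.0376%) and 0 lower (0%). In endothelial cells 343 of 9698 genes were higher (3.54%) and 701 lower (7.23%), but the pairs were unequal in depth, with medians of 1200 and 938 UMIs in injured replicate 1 and of 1404 and 1011 UMIs in replicate 3. Among pathway genes, RHEB, NPC2, SCARB2, CD63, ATP6V0E1, ATP6V1F, ATP6V1B2 and GABARAP were called lower and UVRAG and BCL2 higher in TFEC-positive endothelial nuclei. Markers of other cells moved with the classes: 4 of 6 excitatory neuron markers were higher, all 3 endothelial markers lower, and 7 of 10 interferon-response genes lower. Their part in these calls was not tested. Astrocytes, OPCs and inhibitory neurons had fewer than 50 TFEC-negative nuclei in at least 1 library and were not tested.

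Classes by TFEB and by MITF outside this setting showed little. TFEB-positive microglia (1100, 746 and 842 pairs) had 7 of 12016 genes higher (0.0583%) and 3 lower (0.025%), with positive nuclei deeper in injured replicate 1 (medians of 4210.5 and 3838 UMIs) and replicate 3 (3972.5 and 3603.5 UMIs). Without injured replicate 2 the calls were 30, and with DESeq2 they were 2. GPNMB was the 1 pathway gene among them (log2 fold change 0.46, SE 0.09, adjusted p = 0.0028 by edgeR). In oligodendrocytes edgeR called 0 of 8579 genes by TFEB and 0 of 8343 by MITF (0%), with 629 and 420 genes at an unadjusted p below 0.05 and 0 calls by DESeq2 in both. By TFEB, edgeR called 1, 10 and 5 genes without injured replicates 1, 2 and 3.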

How the data were processed

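The authors counted reads with Cell Ranger 3.1.0 on the calJac3 genome and an Ensembl annotation adapted to nuclei, ran Scrublet against doublets in the injured libraries and a Seurat filter on gene number in the control library, and named cell types by cluster. The deposited tables hold raw UMI counts per gene and nucleus, with no normalization, beside tables of each nucleus' library and cell type. Totals per nucleus equalled the deposited totals in all 29537 injured and 8610 control nuclei. Replicate numbers follow the order of deposit. The family members and gene lists were chosen with earlier results of these data known.

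UMIs of a cell type were added up within each library and divided by their total (CPM). Shares of nuclei with a UMI carry exact Clopper-Pearson 95% intervals, and control CPM carry exact Poisson intervals. Both cover counting error only. A count of 0 was set against 3 UMIs. A UMI is 1 molecule tagged at its 3' end, so CPM has no length term. To equalize depth, 1000 UMIs were drawn at random from each nucleus. Pathway genes were tested on sums with edgeR 4.0.16 in R 4.3.3 (TMM, filterByExpr, glmQLFit, glmQLFTest, Benjamini-Hochberg over all genes of a cell type). With 1 control library the spread comes from the injured libraries, and nothing shows how 1 pooled library would vary. Nuclei with and without a member's UMI were summed per animal and compared with the animal as a block. Pairs were formed from the scarcer class, deepest first, to the nearest total without replacement, and for MITF and TFEB pairs more than 10% apart in UMIs were dropped. The plan had been to start from the positive nuclei, but TFEC-positive nuclei outnumbered the negative ones. The named genes were the 4 with calls in the most cell types per list, the 10 most like TFEC, and the 5 largest rises and falls per class. Not every gene under this rule is reported here. Other called list genes were named after their values were seen. DESeq2 1.42.0, other normalizations, filters and sets of nuclei, and leaving out each animal served as alternatives. The injured against control tests of microglia and astrocytes and the TFEC and MITF class tests of microglia were checked on simulated counts, the others not. In microglia against control this check made no calls. List genes were matched by symbol or, where the tables give only an Ensembl ID, through a table of gene names. Python 3.11.15, numpy 2.4.6, pandas 2.3.3 and scipy 1.17.1 were used.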

Additional observations from a re-analysis of the deposited data

Results flagged for a closer look

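Some members stood on opposite sides of control between cell types. Every injured library was above the control library in some cell types and below it in others. By cell type, 30.8% to 49.4% of all genes had every injured library above control and 40% to 47.5% had every one below. For MITF, all injured libraries passed the control library's counting interval only in microglia, oligodendrocytes and excitatory neurons. Its mean log2 ratio in endothelial cells and OPCs changed sign after thinning to 1000 UMIs. For TFEB, all passed that interval only in OPCs and microglia. Its mean log2 ratio in OPCs fell from 1.15 to 0.32 after thinning. The positions of the members were not tested, because the genes were chosen on this contrast. The share of all genes past their own counting interval was not computed. MITF averaged 834 CPM in injured microglia, 425 CPM in oligodendrocytes, 315 CPM in inhibitory neurons and 37.4 CPM in excitatory neurons, all above control, but 118 CPM in endothelial cells and 86.8 CPM in OPCs, both below control. TFEB averaged 85.3 CPM in astrocytes, 95.1 CPM in OPCs, 72.7 CPM in endothelial cells, 32.6 CPM in excitatory neurons and 66.8 CPM in inhibitory neurons, all above control, but 172 CPM in microglia, below control. TFE3 averaged 7.53 CPM in OPCs beside a control count of 0, below the level 3 control UMIs would give, so no direction can be read there. It averaged 18.7 CPM in microglia, 11.4 CPM in astrocytes, 5.41 CPM in endothelial cells, 7.35 CPM in excitatory neurons and 5.53 CPM in inhibitory neurons, all below control.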

How the results depend on the processing

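TFEC stayed above control in all 7 cell types, and MITF in 4 or 5, under TMM library sizes, thinning, a limit of 2500 genes, removal of nuclei with a microglia-marker UMI outside microglia, and without each injured animal. TFEB was above control in 3 cell types rather than 5 after thinning, under the limit of 2500 genes and without marker-holding nuclei. Of the pathway pairs, 18 higher and 5 lower, DESeq2 called 35 and 8, thinned counts 6 and 0, an adjusted p below 0.05 gave 70 and 29, and the limit of 2500 genes left 1 lower pair. Leaving out 1 injured animal gave 6 to 63 higher and 2 to 18 lower pairs.

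For TFEC classes of microglia, 22 genes became 0 with DESeq2, 0 without lymphocyte-marker nuclei, 1128 with all nuclei unmatched in depth, 56 at an adjusted p below 0.05, 180 when nuclei above the median TFEC per UMI were set against those below, and 6 to 25 without 1 animal. For MITF classes, 579 genes became 225 with DESeq2, 99 without lymphocyte-marker nuclei, 1580 unmatched, and 359 to 545 without 1 animal. For TFEB classes, 10 genes in microglia became 2 with DESeq2 and 11 to 30 without 1 animal, and 0 in oligodendrocytes became 1 at an adjusted p below 0.05 and 1 to 10 without 1 animal. Without the replicate block, that is, without pairing the classes of an animal, TFEC, MITF and TFEB classes of microglia each gave 0 calls. None of the 10 genes most like TFEC remained among the first 10 over the injured sums alone (0 of 10). The MITF and TFEB classes, the sets without lymphocyte-marker nuclei and the split at the median were chosen after seeing the data. The cause of these changes was not tested, except that unmatched classes differ in depth by construction.

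No paired analysis was possible because the control animals form 1 pooled library, whose number 1 only names it and pairs it with no injured animal. That library holds 129 microglia, 171 OPC and 181 endothelial nuclei, which limits every control value of those cell types, and its spread between animals is unknown.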
